A study of Mus musculus with 3 samples.

Results

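The genes described here are the complement components and receptors C1qa, C1qb, C1qc, C1ra, C3, C4b, Cfb, C3ar1 and C5ar1. They were chosen by symbol, and each symbol matched 1 row of both count matrices, which gave 9 genes of the 55357 listed. The rule used no measured value, but the members were chosen with earlier results of these data known. All 9 had unique molecular identifiers (UMIs, each counting 1 captured RNA molecule) in both libraries, from 519 UMIs of C3ar1 in the sgCPT1A library to 38880 UMIs of C3 in the same library.

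Complement is a cascade of plasma and tissue proteins that marks surfaces and calls in leukocytes. In the classical pathway, C1q, built from A, B and C chains, binds antibody or other ligands and activates the proteases C1r and C1s, which cut C4 and C2. In the alternative pathway, factor B joins C3b. Both routes cut C3, whose small fragment C3a acts on the receptor encoded by C3ar1, and lead to C5a, the ligand of the receptor encoded by C5ar1. Most plasma complement comes from the liver. In solid tissue, C1q is known as a product of macrophages, while fibroblasts, epithelial cells and many tumour cells are known to make C1r, C1s, C3 and C4.

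The study grew tumours from 4T1, a mouse mammary carcinoma cell line, and profiled all cells of the dissociated tissue by droplet single-cell RNA sequencing, with the question of how cell composition differs when Cpt1a, which encodes the mitochondrial fatty acid importer CPT1A, is depleted. The control library came from tumour tissue of 4T1-sgVC cells, labelled as wild type, and the other library from that of 4T1-sgCPT1A cells, labelled as a CPT1A knockdown. The genotype belongs to the injected cells, so that stromal and immune cells of both groups were those of the host. Samples were labelled female and 8 to 10 weeks old, tumour-bearing mice were housed for 8 days, while the labels state neither the host strain nor how many mice or clones a library stands for. Of 3 listed samples, 2 had a matrix, while a further sgCPT1A sample had no matrix of its own among the files used, and whether its reads are part of the sgCPT1A matrix is not stated. Each group was therefore 1 matrix, treated as 1 library with no replicate, and no test between groups was possible. Intervals below are exact 95% intervals and cover counting error only.

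The libraries differed in size and make-up. The sgVC matrix held 9890 cell barcodes with 155948212 UMIs and a median of 10809 UMIs, and the sgCPT1A matrix held 7198 barcodes with 35557125 UMIs and a median of 2786 UMIs. The libraries had 18 barcodes in common. After filtering, 9319 and 6743 cells were kept and sorted into classes by marker genes, with complement genes left out of the clustering. Tumour-like cells, marked by Krt8, Krt18 and Wfdc2, made up 48.0% of sgVC cells (4476 cells) and 0.578% of sgCPT1A cells (39 cells). Neutrophil-like cells were 19.2% (1790 cells) and 76.1% (5131 cells), monocyte/macrophage-like cells (macrophage-like below) 14.8% (1377 cells) and 4.46% (301 cells), and fibroblast-like cells 4.29% (400 cells) and 7.61% (513 cells). In sgCPT1A, 30 of the 39 tumour-like cells belonged to cluster 20, led by Krt19, Epcam and Prlr, which held 13 of the 4476 in sgVC. Of the tumour markers, Epcam, Krt7, Krt19, Cldn4 and Cldn7 passed the marker limits in cluster 20, and Tslp did not. In clusters 0, 2 and 11, which held the other tumour-like cells, Tslp passed and those genes did not. Whether cluster 20 cells came from the injected line was not tested, so tumour-like values of sgCPT1A may not be those of 4T1 cells. Cpt1a itself, the gene targeted by the guide, had a level of 17.4 CPM, the UMIs of a gene per 1000000 UMIs of its class, in sgVC tumour-like cells (2114 UMIs) and of 28.7 CPM in those of sgCPT1A (22 UMIs). A 3′ tag does not read the guide site, and most of these sgCPT1A cells were of cluster 20, so neither value checks the label.

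C1q was a macrophage gene group in both libraries, and C1qa, C1qb and C1qc were lower in the sgCPT1A library. Monocyte/macrophage-like cells gave 97.9%, 97.8% and 98.2% of all C1qa, C1qb and C1qc UMIs of the sgVC library. In the sgCPT1A library their shares were 94.6%, 93.9% and 95.9%, although the class made up only 4.46% of its cells. C1qa stood at 1402 CPM (1378 to 1426) in sgVC and 663 CPM (629 to 698) in sgCPT1A macrophage-like cells, a log2 ratio of −1.08. C1qb stood at 1193 and 495 CPM, a log2 ratio of −1.27 (−1.36 to −1.18). C1qc stood at 1134 and 420 CPM, a log2 ratio of −1.43 (−1.53 to −1.34). The order A, B, C of the chains was the same in both libraries, and the gap between libraries was smallest for the A chain and largest for the C chain. C1qa gave 37.6% of the C1q UMIs of sgVC macrophage-like cells and 42.0% of those of sgCPT1A, and C1qc 30.4% and 26.6%. Each UMI is a 3′ tag of 1 molecule, so levels of different genes are compared here without scaling to transcript length.

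The C1q genes lie side by side on chromosome 4 (GRCm38, GENCODE M21 annotation), all on the minus strand within 18.675 kb. C1qb (ENSMUSG00000036905) spans chr4:136880129-136886187, C1qc (ENSMUSG00000036896) chr4:136889804-136893065 and C1qa (ENSMUSG00000036887) chr4:136895917-136898803. The 200 bases before the RefSeq transcription start (GRCm38.p6, 5′ to 3′ on the gene's strand) are shown for the chains that had a promoter entry, since these neighbours differed between the libraries in the same direction. Capitals mark motif matches.
C1qb, chr4:136886201-136886400: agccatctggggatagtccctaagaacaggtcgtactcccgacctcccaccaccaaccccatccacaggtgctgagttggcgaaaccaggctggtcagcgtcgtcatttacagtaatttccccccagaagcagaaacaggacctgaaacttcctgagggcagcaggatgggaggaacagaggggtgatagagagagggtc
C1qc, chr4:136892915-136893114: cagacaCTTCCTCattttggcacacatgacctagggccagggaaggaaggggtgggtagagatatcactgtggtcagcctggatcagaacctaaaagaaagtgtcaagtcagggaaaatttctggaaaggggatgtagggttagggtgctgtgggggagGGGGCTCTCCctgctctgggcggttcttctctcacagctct
In the C1qc window, CTTCCTC (194 to 188 bases before the start) is the PU.1 motif GAGGAAG on the other strand, and GGGGCTCTCC (41 to 32 bases before the start) matches the NF-kB consensus. Of 32851 RefSeq promoter windows of 300 bases (250 before and 50 after the start), 13.6% held GAGGAAG and 8.46% the NF-kB consensus on either strand. The C1qb window held no match to the 6 motifs searched. These are matches of letters and no evidence of binding.

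Fewer macrophage-like cells of the sgCPT1A library carried C1q. The 3 chains were found together in 39.4% of sgVC macrophage-like cells (543 of 1377) and in 24.3% of sgCPT1A ones (73 of 301). No C1q UMI was found in 44.4% and 64.8% of these cells. Median depth of the class was 5528 and 5527 UMIs per cell. C1qa was detected in 48.2% (45.6 to 50.9) and 30.9% (25.7 to 36.5) of the class, and in 37.2% and 21.5% after each cell was thinned to 1000 UMIs. In T-like cells, which should lack C1q and had a median depth of 2868 and 4914 UMIs, C1qa was detected in 0.818% and 0.363%. Among macrophage-like cells with all 3 chains, the chains summed to 6675 CPM in sgVC and to 5233 CPM in sgCPT1A.

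The class held the same clusters in both libraries, in different proportions. Cluster 7, whose leading genes included H2-Aa, H2-Ab1 and Ccl24, held 777 of the sgVC and 85 of the sgCPT1A cells, and cluster 9, led by Pf4, Mmp12 and Ccl8, held 600 and 216. C1q was lower in sgCPT1A within each of them. In cluster 7, C1qa stood at 1181 and 656 CPM (log2 ratio −0.85, −0.98 to −0.72) and C1qc at 944 and 324 CPM (−1.54, −1.73 to −1.36). In cluster 9, C1qa stood at 1956 and 667 CPM (−1.55, −1.65 to −1.45) and C1qc at 1611 and 471 CPM (−1.77, −1.89 to −1.65). Cells with all 3 chains were 39.4% and 14.1% of cluster 7 and 39.5% and 28.2% of cluster 9. Among such cells, C1q stood at 7409 and 4606 CPM in cluster 9. In cluster 7 it stood at 6259 and 7496 CPM, with only 12 such cells in sgCPT1A, 1 of which gave 325 of the 1051 C1q UMIs of that cluster.

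**Figure D1:**
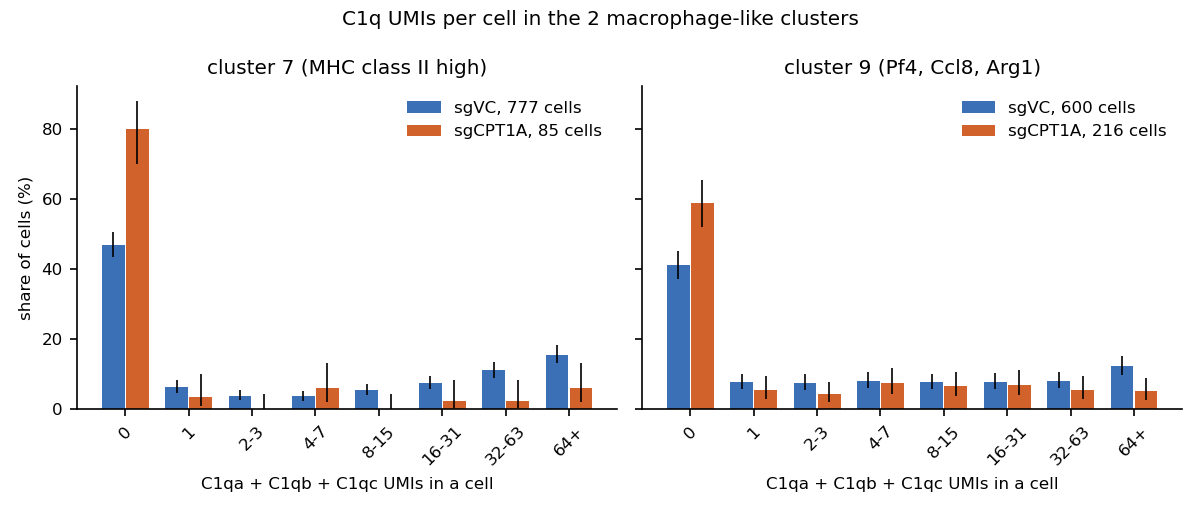
Share of cells (y axis, %) by the sum of C1qa, C1qb and C1qc UMIs in a cell (x axis, bins) in macrophage-like clusters 7 and 9, sgVC in blue and sgCPT1A in orange. Error bars are exact 95% binomial intervals. Cells with 0 UMIs were 47.0% and 80.0% of cluster 7 and 41.2% and 58.8% of cluster 9, and cells with at least 64 UMIs were 15.6% and 5.88% of cluster 7 and 12.2% and 5.09% of cluster 9.

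Other genes of these cells also differed. In the macrophage-like class, the summed level of 8 monocyte markers was 2101 CPM (sgVC) and 3472 CPM (sgCPT1A), that of 10 macrophage markers 8661 and 11805 CPM, and that of 5 MHC class II genes 15257 and 8218 CPM. Ly6c2, a marker of inflammatory monocytes, stood at 64.0 and 519 CPM, whereas Ccr2, another such marker, stood at 361 and 218 CPM. Mrc1, which encodes the mannose receptor, stood at 640 and 283 CPM, and Apoe at 3653 and 4860 CPM. All 9 neutrophil markers had UMIs in the class in both libraries, summing to 889 and 3418 CPM. Whether any of these moved C1q was not tested.

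C1q UMIs outside macrophage-like cells were few. All other kept cells together stood at 5.22 CPM of C1q in sgVC and 5.88 CPM in sgCPT1A. Fibroblast-like cells of sgVC held 248 C1q UMIs, of which 132 were in 1 cell. Neutrophil-like cells of sgCPT1A held 49 C1qa, 57 C1qb and 31 C1qc UMIs. At the ratio of these genes to Apoe and Mrc1 found in macrophage-like cells, the Apoe and Mrc1 UMIs of those neutrophil-like cells would come with 64.2, 48.0 and 40.6. The observed and computed counts were of like size, and whether these UMIs were carried-over RNA was not tested.

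C1ra encodes the protease that C1q activates, and its source cells were different ones. In the sgVC library, tumour-like cells gave 61.7% of its UMIs and fibroblast-like cells 34.2%, and in the sgCPT1A library fibroblast-like cells gave 94.9%. Per class, C1ra (ENSMUSG00000055172, chr6:124512405-124523443, plus strand) was highest in fibroblast-like cells, at 152 CPM (142 to 162) in sgVC and 322 CPM (312 to 332) in sgCPT1A, a log2 ratio of 1.09 (0.98 to 1.19). It was detected in 71.8% and 87.9% of these cells. The pericyte or smooth muscle-like cells followed with 29.8 and 121 CPM, over 51 and 72 cells, and sgVC tumour-like cells with 13.5 CPM (12.8 to 14.2). Macrophage-like cells stood at 8.61 and 11.0 CPM, with overlapping intervals. The protease that acts next, C1s1, followed the same order, with 340 and 653 CPM in fibroblast-like cells (log2 ratio 0.94, 0.87 to 1.01) and 41.8 CPM in sgVC tumour-like cells. C1rb, the near copy of C1ra, stood at 135 and 287 CPM in fibroblast-like cells, and reads shared by these paralogs may be split between them, so each level is uncertain.

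C4b encodes complement C4, the first substrate of the C1 proteases. Its UMIs came from tumour-like cells (70.3%) and fibroblast-like cells (27.0%) in the sgVC library and from fibroblast-like cells (98.1%) in the sgCPT1A library. C4b (ENSMUSG00000073418, chr17:34728380-34743882, minus strand) stood at 436 CPM (419 to 453) in sgVC and 810 CPM (794 to 826) in sgCPT1A fibroblast-like cells, a log2 ratio of 0.89 (0.83 to 0.95). In tumour-like cells it stood at 56.1 CPM (54.8 to 57.5) in sgVC and 57.4 CPM (41.7 to 77.0) in sgCPT1A, the latter from 44 UMIs. The mix of clusters in this class differed between the libraries, so these values were not compared. C4b was detected in 53.0% of sgVC tumour-like cells. In the other direction from the fibroblasts, macrophage-like cells stood at 25.6 CPM (22.5 to 29.1) in sgVC and 14.7 CPM (10.1 to 20.8) in sgCPT1A, a log2 ratio of −0.80 (−1.38 to −0.26) that became 0.50 when every cell was weighted equally. C4a, the near copy of C4b, had 30 and 23 UMIs in all.

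C3, the protein on which all complement pathways converge, was the member with the most UMIs and the broadest source. Its 24541 UMIs in the sgVC library came from fibroblast-like (48.2%), tumour-like (37.5%), macrophage-like (11.1%) and neutrophil-like cells (2.86%). Its 38880 UMIs in the sgCPT1A library came from fibroblast-like (86.4%), neutrophil-like (9.85%) and macrophage-like cells (2.66%). Over all kept cells, C3 was at 167 CPM in the sgVC library and 1116 CPM in the sgCPT1A library, which includes the difference in cell mix. C3 (ENSMUSG00000024164) spans chr17:57203970-57228136 on the minus strand. The 200 bases before its RefSeq start (GRCm38.p6) are shown because C3 was present in every main source class, with the C/EBP match in capitals.
C3, chr17:57228137-57228336: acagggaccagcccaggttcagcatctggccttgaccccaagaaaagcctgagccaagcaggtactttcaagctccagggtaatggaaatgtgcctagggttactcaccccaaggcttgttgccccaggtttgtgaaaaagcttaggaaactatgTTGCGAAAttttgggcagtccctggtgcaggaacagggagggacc
TTGCGAAA, 45 to 38 bases before the start, is the C/EBP motif TTNNGCAA on the other strand, which 10.8% of all windows held. A promoter window was present for 6 members (C1qb, C1qc, C1ra, C3, C3ar1 and C5ar1). Neither the interferon-stimulated response element (3.44% of windows) nor TGCTGAC, a MAF half-site (4.67%), matched in any of the 6, and the gamma-activated site TTCNNNGAA (8.30%) matched in 1, that of C1ra.

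Fibroblast-like cells had the highest C3 level of any class in both libraries. They stood at 1968 CPM (1933 to 2004) in sgVC and 2713 CPM (2684 to 2742) in sgCPT1A, a log2 ratio of 0.46 (0.43 to 0.49), and 91.5% and 91.2% of them had a C3 UMI. C3 and C4b were found in the same cell in 78.0% and 88.1% of fibroblast-like cells. In cluster 8, which held 383 and 436 of the fibroblast-like cells, C3 stood at 1973 and 2837 CPM. Cluster 17, led by Postn and holding 17 and 77 cells, stood at 1803 and 1659 CPM. The Postn-led fibroblasts thus did not share the higher C3 of the sgCPT1A library. The summed level of 7 adventitial fibroblast markers in the class was 932 and 2070 CPM, among them Pi16 at 250 and 577 CPM. The 9 neutrophil markers summed to 198 and 732 CPM. Their part in the result was not tested.

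Tumour-like cells made C3 and C4b in a different proportion from fibroblasts. In sgVC they stood at 75.6 CPM of C3 (74.1 to 77.2), and 63.4% of the cells had a C3 UMI. They had 74.2 UMIs of C4b per 100 of C3, where fibroblast-like cells had 22.1 in sgVC and 29.8 in sgCPT1A. Serping1, the C1 inhibitor that fibroblasts had at 101 UMIs per 100 of C3 in both libraries, was at 1.29 per 100 in sgVC tumour-like cells. The tumour-like C3 was therefore not in fibroblast proportion. By fibroblast ratios to Col1a1 and Col3a1, the collagen UMIs of these cells would bring 71.1 C3 UMIs, neutrophil and macrophage ratios would add 54.6 and 47.0, and 9201 were observed. For C4b the fibroblast ratio would bring 15.8 UMIs, and 6825 were observed. Within the tumour-like class of sgVC, cluster 0 (2414 cells) stood at 95.3 CPM of C3 and 84.7 CPM of C4b, and cluster 2 (1825 cells, led also by the mitotic gene Ube2c) at 61.3 and 34.8 CPM. In sgCPT1A the 39 tumour-like cells stood at 65.2 CPM of C3 (48.4 to 85.9), with 42.0% of these UMIs in 1 cell, and the mix of clusters differed, so the libraries were not compared in this class. Other complement genes of sgVC tumour-like cells included Clu, which encodes clusterin, a fluid-phase inhibitor, at 146 CPM, and Masp1, a protease of the lectin pathway, at 44.3 CPM. Over all kept sgVC cells, C1qbp of the same gene lists had more UMIs than either (57727, beside 18031 of Clu and 5684 of Masp1).

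Myeloid cells also carried C3. Neutrophil-like cells stood at 254 CPM (235 to 273) in sgVC and 279 CPM (270 to 288) in sgCPT1A, a log2 ratio of 0.14 (0.02 to 0.25). C3 was detected in 28.2% and 42.4% of them at median depths of 1460 and 2629 UMIs, and in 19.9% and 22.4% after thinning to 1000 UMIs, so the gap in detection was smaller at matched depth. Each of the 4 neutrophil-like clusters had C3, from 207 to 318 CPM over clusters and libraries. Neutrophil-like cells had 0.285 and 1.31 UMIs of C4b per 100 of C3. At the fibroblast ratio to collagen, 130.0 of the 3829 sgCPT1A UMIs would be carried over. Macrophage-like cells stood at 290 CPM (279 to 301) and 476 CPM (447 to 506), a log2 ratio of 0.72 (0.61 to 0.82), with C3 in 53.7% and 66.4% of cells. Within cluster 7 the levels were 304 and 447 CPM, and within cluster 9 they were 254 and 491 CPM. T-like cells stood at 3.57 and 15.6 CPM of C3. The 52 C3 UMIs of sgCPT1A T-like cells compare with 19.4 at the fibroblast ratio and 36.8 at the neutrophil ratio.

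Cfb, which encodes factor B of the alternative pathway, had the widest gap between libraries of the 9 members in macrophage-like cells, and the widest among C1ra, C3, C4b and Cfb in fibroblast-like cells. In macrophage-like cells it stood at 17.6 CPM (15.1 to 20.5) in sgVC and 93.8 CPM (81.4 to 108) in sgCPT1A, a 5.32-fold difference (log2 ratio 2.41, 2.11 to 2.72). It was detected in 10.1% and 32.6% of cells, and in 2.09% and 8.00% after thinning. In cluster 7 it stood at 19.9 and 107 CPM and in cluster 9 at 11.9 and 86.7 CPM, so the gap was present in both. In fibroblast-like cells it stood at 82.4 CPM (75.3 to 90.0) and 278 CPM (269 to 288), a 3.38-fold difference (1.76, 1.62 to 1.90), and was detected in 54.0% and 76.6%. Of the fibroblast clusters, cluster 8 stood at 83.3 and 300.3 CPM and the Postn-led cluster 17 at 46.9 and 92.0 CPM. The sgVC value of cluster 17 rests on few Cfb UMIs from 17 cells, so its gap is uncertain. Tumour-like cells of sgVC were low, at 2.70 CPM (2.42 to 3.01). In sgCPT1A macrophage-like cells 204 Cfb UMIs were observed, where the fibroblast ratio to collagen would bring 1.2. Cfb (ENSMUSG00000090231, chr17:34856374-34862518, minus strand) overlaps the predicted gene Gm20547 on the same strand for 6107 bases, and Gm20547 had 0 UMIs in these classes; how reads of the overlap were assigned is not stated.

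In macrophage-like cells, Cfb and C1q differed between the libraries in opposite directions. In macrophage-like cells of sgCPT1A, Cfb was detected in 35.5% of cells with C1qa and in 31.2% of cells without it, and in sgVC in 12.1% and 8.27%. The Cfb of these cells was thus not limited to the cells that lacked C1q. Cfp, which encodes properdin, the stabiliser of the alternative convertase, stood at 340 and 339 CPM in macrophage-like cells. Fcna, the macrophage ficolin of the lectin pathway, was lower with C1q, at 40.3 and 13.8 CPM (log2 ratio −1.55, −2.13 to −1.01).

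**Figure D2:**
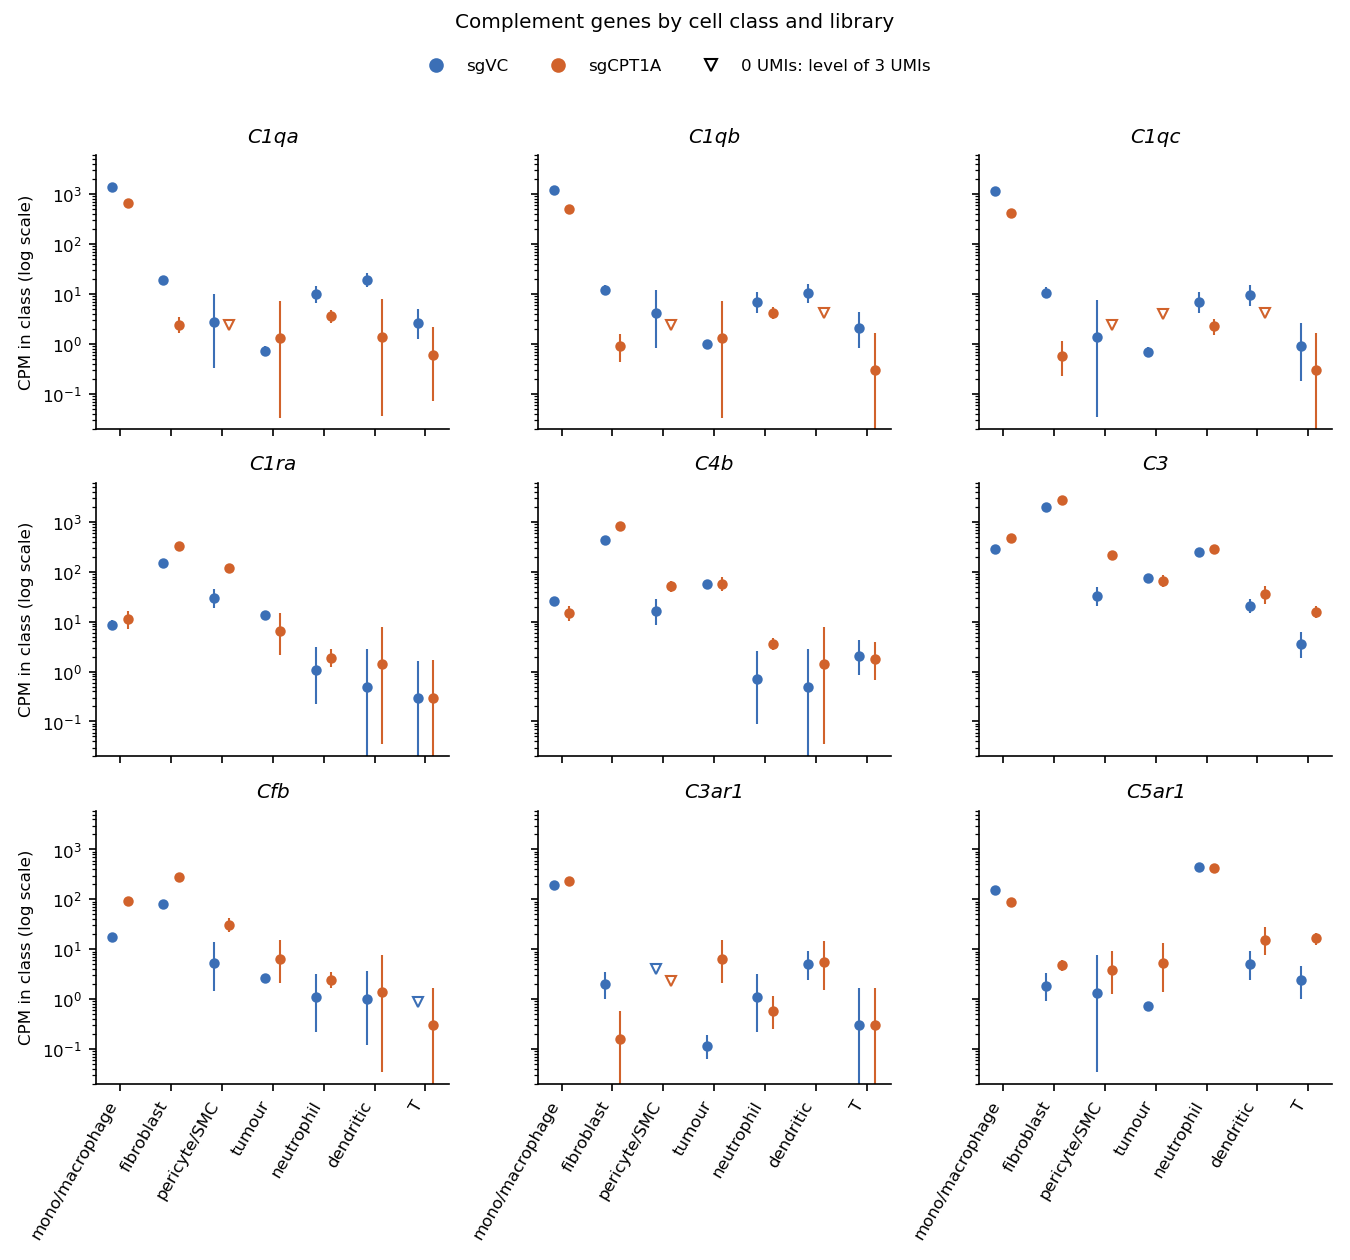
Level of each gene (y axis, CPM of the class, log scale) in 7 cell classes (x axis; SMC, smooth muscle cell) of the sgVC (blue) and sgCPT1A (orange) libraries. Points are sums over all cells of a class with exact 95% Poisson intervals, and open triangles mark the level that 3 UMIs would give where none was found. The C1q chains and C3ar1 stand out in 1 class, C3 spans fibroblast-like (1968 and 2713 CPM), macrophage-like (290 and 476 CPM) and neutrophil-like cells (254 and 279 CPM), and C5ar1 is highest in neutrophil-like cells (444 and 429 CPM).

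**Figure D3:**
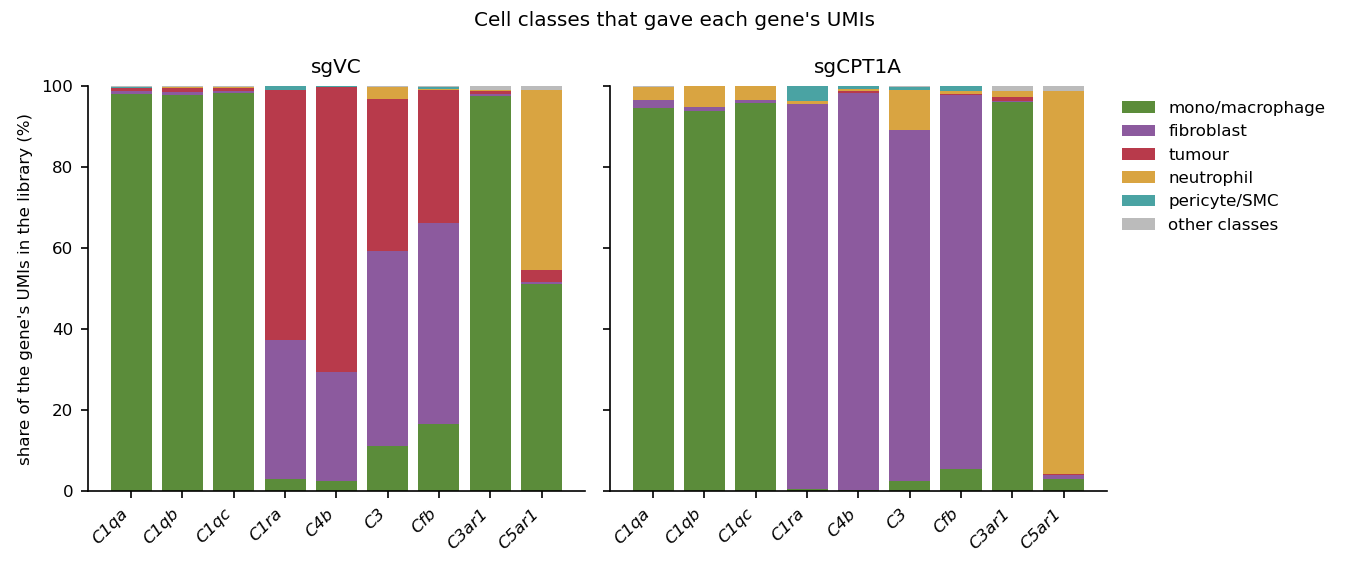
Share of each gene's UMIs (y axis, %) that each cell class gave in the sgVC (left) and sgCPT1A (right) libraries. Tumour-like cells gave 70.3% of C4b and 61.7% of C1ra in sgVC, and fibroblast-like cells gave 98.1% and 94.9% in sgCPT1A, where tumour-like cells were 39 of 6743.

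The receptors fell on different myeloid cells. C3ar1, the receptor of C3a (ENSMUSG00000040552, chr6:122847138-122856161, minus strand), was a macrophage gene: the macrophage-like class gave 97.5% of its UMIs in sgVC and 96.0% in sgCPT1A. It stood at 197 CPM (188 to 206) and 229 CPM (209 to 250) there and was detected in 51.6% and 45.8% of cells. Its log2 ratio of 0.22 (0.07 to 0.36) was not found within clusters: C3ar1 was higher in cluster 9 (297 and 278 CPM) than in cluster 7 (157 and 139 CPM), and within each cluster it was slightly lower in sgCPT1A, at −0.10 (−0.28 to 0.08) and −0.17 (−0.47 to 0.12). Neutrophil-like cells held 3 and 8 C3ar1 UMIs, or 1.08 and 0.582 CPM. Neutrophils, the class with the most cells in sgCPT1A, thus had C3 but next to no C3ar1. Of C1qa-positive macrophage-like cells, 62.8% in sgVC and 64.5% in sgCPT1A had C3ar1, against 41.2% and 37.5% of C1qa-negative ones, shares that also move with the depth of a cell.

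C5ar1, the receptor of C5a (ENSMUSG00000049130, chr7:16246743-16259540, minus strand), was shared by neutrophils and macrophages. In sgVC the macrophage-like class gave 51.1% and the neutrophil-like class 44.3% of its UMIs, and in sgCPT1A the neutrophil-like class gave 94.6%. Neutrophil-like cells stood at 444 CPM (420 to 470) and 429 CPM (418 to 440), a log2 ratio of −0.05 (−0.14 to 0.04). The median gene of that class had a log2 ratio of −0.27, and relative to it C5ar1 was at 0.22 and C3 at 0.41. C5ar1 was detected in 44.4% and 55.8% of neutrophil-like cells and, after thinning, in 33.7% and 33.3%. In the 15 alternatives that gave a value, its log2 ratio stayed between −0.14 and 0.24, within 1.5-fold. The class held 1228 C5ar1 UMIs over 1790 cells in sgVC and 5893 over 5131 cells in sgCPT1A. Over neutrophil-like clusters, C5ar1 ran from 210 CPM in cluster 1 of sgVC to 628 CPM in cluster 5 of sgCPT1A, the cluster led by Retnlg and S100a9. C5ar2, the second C5a receptor, was far rarer, at 5.42 and 11.8 CPM (15 and 162 UMIs). Macrophage-like cells had less C5ar1 in sgCPT1A, at 151 CPM (143 to 159) and 90.6 CPM (78.4 to 104), a log2 ratio of −0.73 (−0.96 to −0.52). This held in cluster 7 (129 and 84.7 CPM) and in cluster 9 (206 and 93.8 CPM).

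Small C5ar1 counts in other classes were set beside the UMIs that the neutrophil ratio to S100a8 and S100a9 and the macrophage ratio to Apoe and Mrc1 would give. In sgCPT1A, T-like cells had 55 C5ar1 UMIs where these ratios would give 56.7 and 0.317, fibroblast-like cells had 59 where they would give 61.9 and 57.4, and dendritic-like cells had 11 where they would give 11.8 and 1.48. In sgVC, tumour-like cells had 87 where they would give 95.6 and 24.5, fibroblast-like cells had 11 where they would give 4.49 and 24.6, and dendritic-like cells had 10 where they would give 5.55 and 11.1. Apoe is also a fibroblast gene, and whether these UMIs were carried-over RNA was not tested. Basophil or mast cell-like cells, few in number (39 and 15), stood at 104 CPM (49.9 to 191) and 103 CPM (28.1 to 264) of C5ar1, and at 83.2 CPM (35.9 to 164) and 25.8 CPM (0.652 to 144) of C3ar1.

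**Figure D4:**
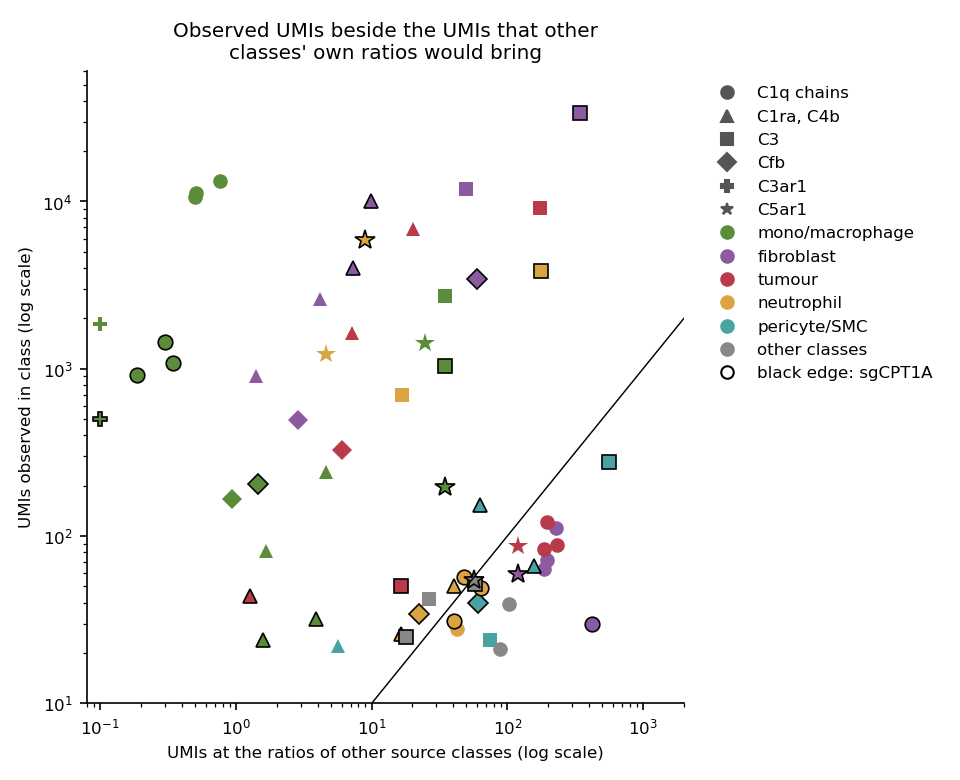
UMIs of each gene observed in a class (y axis, log scale) against the UMIs that the class would hold at other source classes' ratios of the gene to their markers (x axis, log scale, values under 0.1 drawn at 0.1), for classes with at least 20 UMIs; the line marks equality and black edges mark sgCPT1A. C1q in fibroblast-like, tumour-like and neutrophil-like cells and C5ar1 in T-like cells lie at or below the line or near it, whereas the sgVC tumour-like C3 (9201 UMIs) and C4b (6825 UMIs) and the sgCPT1A neutrophil-like C3 (3829 UMIs) lie far above it. Apoe is also made by fibroblasts, so the macrophage ratio overstates what those cells would hold.

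The members were then counted by class, for genes whose UMIs over both libraries came to 20 or more, and called past a 1.5-fold difference. In macrophage-like cells all 9 were counted, and 2 were higher in sgCPT1A (C3 and Cfb), where 15.1% of 11101 genes were, and 5 were lower (C1qa, C1qb, C1qc, C4b and C5ar1), where 24.8% of genes were. Their median log2 ratio was −0.73, beside −0.11 for all genes of the class. In fibroblast-like cells 8 were counted: 4 were higher (C1ra, C4b, Cfb and C5ar1) beside 16.0% of 13236 genes, and 3 were lower (the C1q chains) beside 13.5%, with a median of 0.68 beside −0.02. The C5ar1 call rests on 11 and 59 UMIs, and 51.8 to 54.7% of each C1q chain's sgVC UMIs in fibroblast-like cells were in 1 cell. Without the 1% of cells richest in each gene, the chains fell under 20 UMIs (17, 12 and 7 left) and were not counted. In the 12 alternatives that gave a value each stayed past 1.5-fold lower. Those 12 include neither that setting nor thinning, so whether the gap holds without the richest cells could not be tested. In pericyte or smooth muscle-like cells 4 were counted and all 4 were higher (C1ra, C3, C4b and Cfb), beside 23.0% higher and 18.6% lower among 8698 genes. There, 70.0% of the sgCPT1A C3 UMIs were in 1 cell of 72, and the fibroblast ratio would bring 526 C3 UMIs where 277 were observed, but 62.4 C1ra UMIs where 154 were observed.

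In neutrophil-like cells 8 members were counted, 3 higher (C1ra, C4b and Cfb) and 3 lower (the C1q chains), beside 18.0% higher and 34.6% lower among 9192 genes. All 6 of these calls were of genes at or under 10.1 CPM in that class. The 50 C4b UMIs of sgCPT1A compare with 38.8 at the fibroblast ratio. In dendritic-like cells 4 were counted, with C3 and C5ar1 higher and C1qa and C1qb lower, beside 15.9% and 20.6% of 7976 genes, from at most 42 UMIs of any of them in a library. In T-like cells C3 and C5ar1 were counted and both were higher, beside 13.1% higher and 13.9% lower among 10140 genes. The 2 of 9 higher members in macrophage-like cells are close to their background share, and the number lower there is above its share. In fibroblast-like cells both counts are above their shares but rest partly on few UMIs. All those lower were the neighbouring C1q chains, with 112 and 30, 72 and 11, and 64 and 7 UMIs, most of the sgVC ones in 1 cell. C5ar1, among those higher, had 59 UMIs in sgCPT1A beside 61.9 at the neutrophil ratio. None of this was tested.

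**Figure D5:**
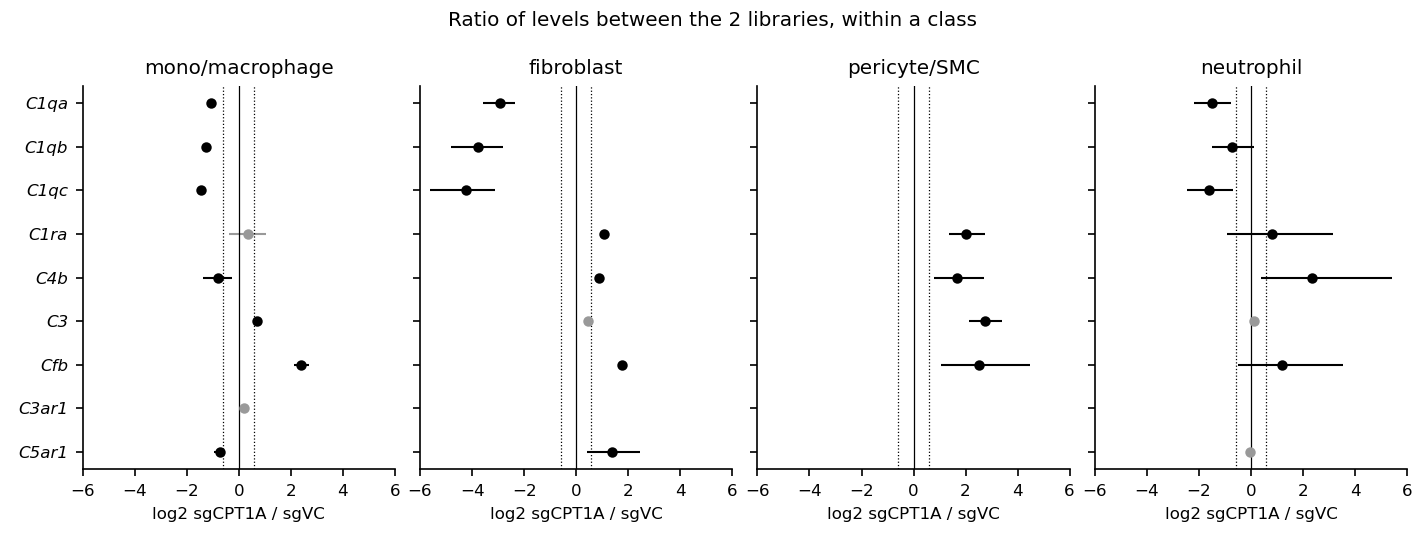
Log2 ratio of levels, sgCPT1A over sgVC (x axis), for each member counted (y axis) in 4 classes (SMC, smooth muscle cell), with exact conditional 95% intervals. Black points are past 1.5-fold, grey points lie between, and dotted lines mark 1.5-fold. In macrophage-like cells Cfb (2.41) and C3 (0.72) lie to the right and the C1q chains (−1.08 to −1.43) to the left, and in fibroblast-like cells C1ra, C4b and Cfb (0.89 to 1.76) lie to the right.

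The rest of the system was read from 49 other complement genes. In fibroblast-like cells 23 of them were counted, 7 higher in sgCPT1A (C1s1, C1s2, C1rb, Hc, Cd55, Cd59a and Csmd1) beside 16.0% of all genes, and 3 lower (Cfd, Cfp and C1qbp) beside 13.5%, with a median log2 ratio of 0.28 beside −0.02. The number lower was near the share of all genes. The Csmd1 call rested on 5 and 20 UMIs, and the interval of its ratio included no difference. All 3 that were higher among the classical genes are C1 proteases, and C2, the partner of C4 in the classical convertase, stood at 88.4 and 120 CPM, between the limits. Hc, which encodes C5, stood at 9.65 and 32.2 CPM (log2 ratio 1.74, 1.34 to 2.16). The C1 inhibitor gene Serping1 (1983 and 2728 CPM) stayed within 1.5-fold, while Cd55, a membrane inhibitor of convertases, stood at 87.0 and 150 CPM. All 310 Cfd UMIs of sgVC fibroblast-like cells were in 1 cell. In macrophage-like cells 17 were counted, 2 higher (C6 and Serping1) beside 15.1% of all genes and 6 lower (C1s1, C1rb, Fcna, Clu, Cd93 and C1qbp) beside 24.8%, with a median of −0.00 beside −0.11. C6, C1s1 and C1rb rested there on 20 and 7, 36 and 5, and 59 and 7 UMIs, and the intervals of their ratios included no difference. Serping1 rested on 31 and 16 UMIs. The subunits of the iC3b receptor, Itgam and Itgb2, stood at 359 and 440 CPM and at 140 and 150 CPM there. In neutrophil-like cells 12 were counted, with 6 higher (C1s1, Hc, Serping1, Cd55, C5ar2 and Itgax) beside 18.0% of all genes. The number lower, 3, was under the share of all genes, 34.6%. C1s1, Hc, Serping1 and Cd55 rested there on 3 and 53, 2 and 51, 10 and 135, and 1 and 32 UMIs. In sgCPT1A fibroblast-like cells these genes stood at 653, 32.2, 2728 and 150 CPM. Whether their UMIs in neutrophil-like cells were carried-over RNA was not tested. Among the genes lower in neutrophil-like cells was Itgam at 267 and 159 CPM (−0.75, −0.87 to −0.63). No UMI of Mbl1, Mbl2, C8b, C4bp, Cd55b or Csmd2 was found in the kept cells of either library.

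Finally, the genes whose levels were most like each member's were listed by Pearson's r of log2(CPM + 1) over 17 class-by-library units with at least 30 cells. Complement, predicted, mitochondrial and ribosomal protein genes were left out of these lists. The units share libraries and carried-over RNA, so r is a description only. The C1q chains were closest to macrophage genes: C1qa to Ccl12 (0.96), Ms4a4a (0.93) and Rnase2a (0.92), C1qb to Ccl12 (0.97), Pf4 (0.94) and Msr1 (0.93), and C1qc to Ms4a4a, Tfec (0.96 each) and Rnase2a (0.95). C3ar1 was closest to F13a1 (0.95), Trem2 (0.95) and Slc7a8 (0.92), and C5ar1 to Trem3 (0.96), Gla (0.96) and Cd33 (0.95). C1ra was closest to Cyp26b1 (0.97), Dennd2a (0.97) and Ace (0.96), and C4b to P4ha2 (0.96), Ace (0.95) and Rassf8 (0.95). C3 was closest to Saa3 (0.91), Abcd2 (0.89) and Hp (0.89), of which Saa3 and Hp encode acute-phase proteins, and Cfb to Lrp1 (0.92), Naglu (0.91) and Vcan (0.91). Between members, r was 0.98 for C1qa and C1qb, 0.93 for C1ra and C4b, 0.86 for C3 and Cfb, and 0.53 for the receptors C3ar1 and C5ar1. Members of unlike role reached similar values, with 0.87 for C1qb and C3ar1, 0.85 for C1qa and C3ar1 and 0.84 for C1ra and Cfb.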

How the data were processed

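The libraries were made from whole dissociated tumour tissue with 10x Genomics 3′ chemistry. The deposited matrices hold raw UMI counts per gene and cell barcode, made with Cell Ranger 7.1.0 per the file headers. GRCm38 and Seurat 4.1.0 appear beside Cell Ranger in the submitters' processing notes. The annotation release was not given in the sources used here, and coordinates come from GENCODE M21.

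Barcodes with fewer than 200 genes or over 20% mitochondrial UMIs were dropped: 280 sgVC and 455 sgCPT1A of them. Scrublet called 291 sgVC doublets (3.03%), which were left out. It called 1 sgCPT1A cell (0.0148%), was taken not to have worked there, and no cell was left out. The kept cells of the libraries were clustered as 1 set, not integrated (10000 UMIs per cell, log, scaled, 3401 variable genes without complement genes, 30 components, 15 neighbours, Leiden resolution 1; scanpy 1.11.5, leidenalg 0.10.2). Markers counted for a cluster when they were 2-fold or more over the median cluster and found in 10% or more of its cells; the class with the most such markers, and 3 as a minimum, gave the name, so class names are rebuilt here and are not the authors'. Cluster 19 (26 and 27 cells), with B cell and plasmacytoid dendritic cell genes, stayed unnamed. The scaling, the Leiden version and the rule for leaving a cluster unnamed were set with the data in hand.

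Counts were summed per class and library and given as CPM with exact Poisson intervals. Shares have exact Clopper-Pearson intervals, and ratios the exact conditional binomial interval, which was tested on simulated counts. The 6 classes with 50 or more cells per library were compared, over genes with 20 or more UMIs. With 1 library per group, no p-value was computed, and cells are not replicates. A count of 0 was given the level of 3 UMIs. Carried-over RNA was gauged as a class's marker UMIs (Col1a1 and Col3a1 for fibroblasts, S100a8 and S100a9 for neutrophils, Apoe and Mrc1 for macrophages) times the gene's ratio to those markers in the source class of the same library. Named genes were all 9 members, other complement genes with at least 50 UMIs in a class or listed in a count, and markers of a class. To these were added 3 genes of nearest level per member, among genes with at least 200 UMIs. Complement, predicted, mitochondrial and ribosomal protein genes were left out of those 3. The members and lists were chosen with earlier results of these data known. Up to 17 alternatives were run, 3 of them added after seeing the data. Values of some genes of these lists are not reported here.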

Additional observations from a re-analysis of the deposited data

Results flagged for a closer look

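C4b and C5ar1 differed between the libraries in opposite directions in different cell classes. The log2 ratio of C4b, sgCPT1A over sgVC, was −0.80 in monocyte/macrophage-like cells, 0.89 in fibroblast-like cells, 1.67 in pericyte or smooth muscle-like cells and 2.33 in neutrophil-like cells. That of C5ar1 was −0.73 in monocyte/macrophage-like cells, 1.38 in fibroblast-like cells, 1.63 in dendritic-like cells and 2.79 in T-like cells. With 1 library per group, the difference between classes was not tested. The C4b value of neutrophil-like cells rests on 2 and 50 UMIs, and the C5ar1 values of fibroblast-like, dendritic-like and T-like cells rest on 11 and 59, 10 and 11, and 8 and 55 UMIs. Under alternatives, C4b reached 0.50 in monocyte/macrophage-like cells and −1.18 in neutrophil-like cells, so both of these changed direction. At the neutrophil ratio of C5ar1 to S100a8 and S100a9, the sgCPT1A fibroblast-like, dendritic-like and T-like cells would hold 61.9, 11.8 and 56.7 C5ar1 UMIs, close to the 59, 11 and 55 found.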

How the results depend on the processing

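No paired analysis was possible because each group had 1 library. Depth and cell number limit the classes of fewer cells and no replicate limits all of them. Of the log2 ratios past 1.5-fold, 3 changed sign: C4b in macrophage-like cells was 0.50 with every cell weighted equally, and with the class taken from each cell's own markers C1ra was −0.44 and C4b −1.18 in neutrophil-like cells. Of those within 1.5-fold, C3ar1 in macrophage-like cells kept its sign in 12 of 15 alternatives (−0.18 to 0.33), C1ra there in 13 of 14 (lowest −0.03) and C5ar1 in neutrophil-like cells in 11 of 15 (−0.14 to 0.24). In macrophage-like cells the number of members higher in sgCPT1A, 2, was 1 at 2-fold and with doublets kept. It was also 1 without cells that had markers of another class and with cells weighted equally. The number lower in macrophage-like cells, 5, was 3 at 2-fold. It was 4 without cells that had markers of another class, with cells weighted equally and after thinning. The filter on markers of another class kept 966 of 1377 sgVC but only 87 of 301 sgCPT1A macrophage-like cells. There C1qa ran from −1.37 to −0.91, Cfb from 2.12 to 2.61 and C5ar1 from −0.93 to −0.62, each past 1.5-fold in all 15 alternatives with a value, and C3 from 0.45 to 0.83, past it in 12 of 15. Every fall in the counts named below that came without the top 1% of cells or after thinning was of genes that fell under 20 UMIs and were not counted. In fibroblast-like cells the number lower was 0 in place of 3 without the top 1% of cells and after thinning. The C1q chains there were past 1.5-fold lower in all 12 alternatives that gave a value, which include neither of these settings. C4b (0.73 to 1.07), C1ra (0.64 to 1.27) and Cfb (1.17 to 1.95) kept their side in all 14. In pericyte or smooth muscle-like cells the number lower was 3 in place of 0 with at least 1 UMI, and the number higher 0 in place of 4 after thinning. In neutrophil-like cells the numbers higher and lower, 3 and 3, were 1 and 5 by each cell's own markers and 0 and 0 without the top 1% of cells, and the number higher was 0 after thinning. In dendritic-like cells the number higher, 2, was 4 with at least 1 UMI, 1 at 2-fold, under the stricter cell filter, with doublets kept, with the limit on S100a8 and S100a9 and without the top 1% of cells, and 0 after thinning. The number lower, 2, was 1 under the stricter cell filter and with complement genes among the variable genes, and 0 without the top 1% and after thinning. In T-like cells the number lower was 3 in place of 0 with at least 1 UMI, and the number higher, 2, was 1 by each cell's own markers, 1 in cells whose markers gave the class of their cluster, 0 without cells that had markers of another class, and 1 after thinning, in each case because the other genes fell under 20 UMIs. The falls in dendritic-like cells under the stricter cell filter, with the limit on S100a8 and S100a9 and with complement genes among the variable genes were also of genes under 20 UMIs. The cause of the other differences was not tested. Leaving out barcodes found in both libraries changed no count, and each member's main source class was the same at resolutions 0.5 and 2 and with doublets kept. Of the members' levels, ratios and shares of cells under the alternatives, 1017 lay within the counting interval of the value given and 359 outside it. A further 3 were reversed. This tally leaves out the headline results, of which 162 stayed the same and 30 moved. No count could be made for pericyte or smooth muscle-like and dendritic-like cells with classes from each cell's own markers, for them and fibroblast-like cells without cells that had markers of another class, for pericyte or smooth muscle-like cells under the stricter cell filter, or for dendritic-like cells at resolution 0.5.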
